A study of Mus musculus with 36 samples.

Results

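The creatine kinase genes Ckm, Ckb, Ckmt1 and Ckmt2, the adenylate kinase gene Ak1 and the myoglobin gene Mb were followed across early mouse heart development. They were taken as every probe set that the array annotation gives to one of these symbols alone, which found 10 probe sets for 6 of 6 genes. Of these, 6 probe sets, standing for 5 genes, passed the filter on low values, out of 27256 probe sets and 12983 genes tested in the whole series. The study profiled hearts of C57BL/6 mouse embryos on 36 Affymetrix arrays, in 12 groups of 3 arrays. Atrial chambers, and both ventricles together, were sampled at 5 stages, namely embryonic day 12.5 (E12.5), then E13.5 and E14.5, then E16.5 and finally E18.5, and an early heart sample was taken at E11.5 and E10.5. The labels of the early samples give whole heart in one field and the middle part of the embryo, heart included, in another, so they are called the early heart region here. The E16.5 arrays carry day 15.5 in their description, and the day in the title was used. The labels name no mutation or treatment in any group, and they do not say whether the 3 arrays of a group came from separate embryos, litters or pools, so p-values measure the spread between these samples, which may be technical.

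Creatine kinases pass the phosphate of ATP to creatine and back, so that phosphocreatine buffers ATP and carries high-energy phosphate from mitochondria to the myofibrils. Ckm encodes the muscle subunit and Ckb the brain-type subunit of the cytosolic enzyme, while Ckmt2 encodes the sarcomeric and Ckmt1 the ubiquitous mitochondrial enzyme, which sit between the mitochondrial membranes. Ak1 encodes a cytosolic adenylate kinase, which turns a pair of ADP molecules into ATP and AMP, and Mb encodes the oxygen-binding haem protein of heart and oxidative skeletal muscle. In heart muscle, Ckb is an early cytosolic form, and Ckm and Ckmt2 mark the mature muscle energy system.

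Some atrial arrays carried ventricular genes, which bears on every chamber comparison below. Irx4, which encodes a ventricular transcription factor, read between 1485 and 1965 on the 15 ventricular arrays. On 5 of 15 atrial arrays it was above 300, between 356 and 1281, and on the other 10 it was between 14.3 and 137. Those 5 arrays were replicate 2 of E12.5, replicates 1 and 2 of E14.5, replicate 2 of E16.5 and replicate 1 of E18.5. Chamber differences of the members were therefore also fitted without these arrays, a choice made after seeing the data. A member that was high on the same arrays gets a larger chamber difference through this choice. These fits show how far the values depend on the 5 arrays and are no separate support for a chamber difference. Atria of E14.5 then hold 1 array, so no chamber difference of that day is given without them. Sln, the atrial regulator of the calcium pump, read between 2190.0 and 15577 on atrial arrays and between 11.1 and 1789 on ventricular arrays. Each atrial array was thus above each ventricular one. The 1789 was on ventricular replicate 1 of E18.5, against 72.3 and 15.5 on its group mates, and its summed atrial genes were 12259, against 5917 and 5385. In E12.5 ventricles these sums were 14569, 9865 and 17113, and the lowest atrial one was 15934. No set of arrays was left out for high atrial genes. Among the atrial arrays kept, replicate 1 of E12.5 still had 7827 of the ventricular gene Myl2. Summed genes of skeletal muscle (8 of 12 listed measured) were highest on atrial replicate 3 of E14.5, at 3229, and replicate 2 of E16.5, at 3901, against 719.8 to 2139 on ventricular arrays. Summed foregut and lung genes (7 of 7 measured) were highest on replicate 3 of the atria of E13.5, of E16.5 and of E18.5, at 4168, 8714 and 14693, and summed liver genes (5 of 6 measured) on atrial replicate 2 of E12.5, at 18340, and on ventricular replicate 2 of E16.5, at 10746. Summed red cell genes (3 of 6 listed measured) lay between 11220.5 and 28025.5 in E12.5 atria and between 2207 and 11965 in E12.5 ventricles. At E18.5 they lay between 2379 and 2804 in atria and between 1017 and 1259 in ventricles. Summed epicardial and macrophage genes were also higher in E18.5 atria, at 9632 or more and 5079 or more, against at most 4796 and 2994.5 in ventricles. The part of such mixtures in the member differences was not tested. In such bulk samples, fewer cells of a type and less RNA per cell cannot be told apart.

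All values are the deposited intensities, which had been brought to one level per array, and differences are in log2(intensity + 17). A change was called at an adjusted p below 0.05 in limma. Of the 5 measured genes, 4 were lower in atria than in ventricles over the mean of the 5 days, namely Ckb, Ckmt2, Ak1 and Mb, where 42.4% of all probe sets tested were called in either direction. Their difference was largest for Mb. From E12.5 to E18.5, Ckm, Ckmt2 and Ak1 rose in both chambers. Over the same days summed red cell genes fell, as given above. Summed fibroblast genes rose, from at most 38281 to at least 44757 in atria and from at most 29334.5 to at least 38566 in ventricles. The part of these shifts in the member changes was not tested. The median difference over the 5 genes was -0.74 for atrium against ventricle, beside -0.01 over all probe sets tested. For E18.5 against E12.5 it was 1.85 in atria and 1.27 in ventricles, beside 0.01 and -0.05 over all probe sets. None of the 5 genes was tested only because of one high group, since Ckm was above the filter level of 171.8 on 33 of 36 arrays, Ckmt2 on 35, and Ckb, Ak1 and Mb on 36.

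**Figure D1:**
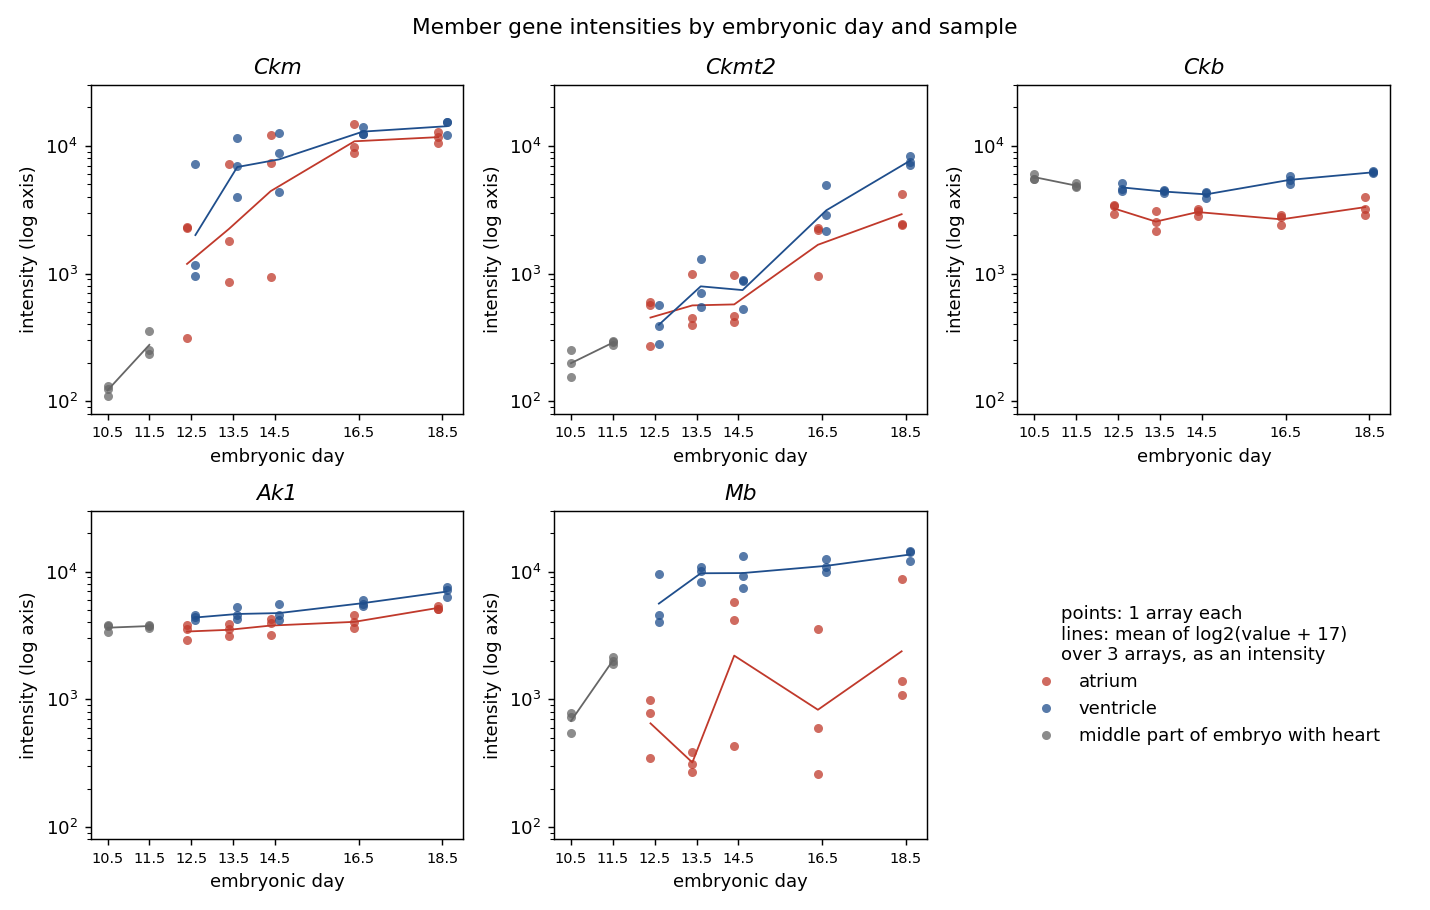
Intensity (log axis) of the main probe set of 5 genes against embryonic day, with 1 point per array and lines through the group means of log2(intensity + 17). Atria are red, ventricles blue and the early heart region grey. Mb separates the chambers on each day, Ckm and Ckmt2 climb with day in both chambers, and Ckb and Ak1 stay within a narrow range.

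Ckm, the muscle-type cytosolic enzyme, started from the lowest intensity and ended among the highest of its own probe set. In the early heart region its main probe set (1417614_at) read 111, 124 and 131 at E10.5. At E11.5 it read 237, 353 and 253. The ranges of these days did not overlap, and no chamber array of any day read as low as the E10.5 arrays. In atria it read 2274, 315.5 and 2296 at E12.5, 859, 7219 and 1785 at E13.5 and 7389, 12248 and 947 at E14.5. In atria of E16.5 it read 9729.9, 14910.2 and 8831, and at E18.5 12950.2, 10512 and 11774. Ventricles read 956.5, 7152 and 1163 at E12.5, 11546, 3951 and 6977 at E13.5 and 12668, 4326 and 8785 at E14.5. The arrays of one group were thus far apart until E14.5, up to 12.9 times between the highest and the lowest array in E14.5 atria. Ventricles of E16.5 read 12299, 12489.8 and 14075, and those of E18.5 15468, 15351 and 12179.7. From E16.5 the arrays of a group lay within 1.69 times of each other, and E18.5 and E12.5 did not overlap in either chamber. The highest of these late intensities reached the range of the array maxima, 12532 to 26432, and the others lay below it. This limits what the closeness of the highest ones can show. Between E18.5 and E12.5 the rise was 3.28 ± 0.76 (SE) in atria and 2.82 ± 0.76 in ventricles on the log2 scale, with adjusted p in limma of 0.0021 and 0.0057. The atrial rise was 2.35 without atrial replicate 2 of E12.5 and 2.28 without all 5 atrial arrays with high Irx4 (adjusted p = 0.031 and 0.029), and the ventricular rise was 3.73 without ventricular replicate 2 of E12.5 (adjusted p = 0.00056). With both probe sets averaged, the rise was 2.43 in atria and 2.04 in ventricles (adjusted p = 0.00024 and 0.0010), and with array weights the atrial rise was 4.86 (adjusted p = 6.3e-09).

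In the main Ckm probe set, atria and ventricles overlapped on all 5 days. The mean difference was -0.74 ± 0.34, which missed the threshold (limma adjusted p = 0.079). Without the 5 atrial arrays with high Irx4 it was -1.06 (adjusted p = 0.0069). It also passed with array weights (-1.01, adjusted p = 0.0068) and with both probe sets averaged (-0.58, adjusted p = 0.021), and without ventricular replicate 1 of E12.5 (-0.85, adjusted p = 0.049), atrial replicate 2 of E13.5 (-0.91, adjusted p = 0.024) or atrial replicate 2 of E14.5 (-0.89, adjusted p = 0.031). Its smallest size was -0.52, without atrial replicate 3 of E14.5 (adjusted p = 0.17). The highest atrial Ckm intensity, 14910.2, was on E16.5 replicate 2, which had the highest summed skeletal muscle genes, whereas the other array with high skeletal muscle genes, E14.5 replicate 3, had the lowest Ckm of its group, 947. The part of skeletal muscle RNA in these values was not tested. Among the 12 groups ordered by mean, E10.5 did not overlap its neighbour, and the other 10 pairs of neighbours did.

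A second Ckm probe set (1444643_at) also rose from E12.5 to E18.5. At E18.5 it read 860.1, 751 and 648 in atria, against 256, 256 and 210.2 at E12.5. In ventricles of E18.5 it read 767.5, 737 and 908, against 328, 314 and 338 at E12.5. The rise was 1.58 ± 0.23 in atria and 1.25 ± 0.23 in ventricles (limma adjusted p = 2e-05 and 0.00014), the same direction as the main probe set and smaller. Both probe sets thus put E18.5 above E12.5, and they disagreed on the early heart region, where the second one read 217, 274 and 244 at E11.5 and 265, 245 and 211 at E10.5, with overlap. In this probe set the mean chamber difference, -0.42 ± 0.10, passed the threshold (limma adjusted p = 0.0014), and was -0.55 without the 5 arrays (adjusted p = 0.00044). Its chambers did not overlap at E12.5 and E16.5, and no single day was called. From E13.5 to E16.5 in ventricles it rose by 0.92 ± 0.23 (limma adjusted p = 0.028).

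Ckmt2, the sarcomeric mitochondrial enzyme, had the largest rise from E12.5 to E18.5 in ventricles among the 5 genes. Its early values were 254, 199.9 and 154 at E10.5 and 297, 293 and 275 at E11.5 in the early heart region. Atrial arrays read 599, 272 and 565 at E12.5, 395, 996 and 452 at E13.5 and 468, 967 and 415 at E14.5. Ventricular arrays of the same days read 389.8, 571 and 281 at E12.5, 1297, 543 and 709 at E13.5 and 869.6, 525 and 896 at E14.5. Up to E14.5 the chambers overlapped on each day and read at most 1297. At E16.5 atria read 2175.5, 2259 and 964, against 2157, 2868 and 4944 in ventricles. At E18.5 atria read 4177, 2408.5 and 2465, against 7494, 8385.5 and 7131 in ventricles. The chambers still overlapped at E16.5, and at E18.5 each ventricular array was above each atrial one.

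Between E18.5 and E12.5, Ckmt2 rose by 2.64 ± 0.39 in atria and by 4.21 ± 0.39 in ventricles on the log2 scale (limma adjusted p = 2e-05 and 8.9e-09). The atrial rise was 2.03 without the 5 atrial arrays with high Irx4 (adjusted p = 0.0020). The difference between these changes, -1.57 ± 0.55, did not pass the threshold (limma adjusted p = 0.10), and it did pass without the 5 atrial arrays with high Irx4, at -2.18 (adjusted p = 0.021). In ventricles from E13.5 to E16.5 it rose by 1.95 ± 0.39 (limma adjusted p = 0.0085). In this interval 2.98% of probe sets were called. Without ventricular replicate 2 of E13.5 the adjusted p of this rise was 0.12, and without ventricular replicate 3 of E16.5 it was 0.082. Between E18.5 and E16.5 it differed by 1.29 in ventricles and by 0.79 in atria, and neither was called (limma adjusted p = 0.19 and 0.51). Atria were lower than ventricles on the mean of 5 days, at -0.59 ± 0.17 (limma adjusted p = 0.0067), and at -0.70 without the 5 arrays. By day, E12.5 gave an atrium minus ventricle difference of 0.18, E13.5 gave -0.48, E14.5 gave -0.36, E16.5 gave -0.89 and E18.5 gave -1.39, each with an SE of 0.39, and the last was called (adjusted p = 0.010). That call had an adjusted p of 0.053 without either atrial replicate 2 or atrial replicate 3 of E18.5. Without the 5 arrays, E12.5 gave 0.53, E16.5 gave -1.10 and E18.5 gave -1.64, and the last was called (adjusted p = 0.0032).

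Ckb, the brain-type cytosolic enzyme, was lower in atria than in ventricles on each of the 5 days, with no overlap between the chambers. At E12.5 it read 3417, 3385 and 2932 in atria, against 4618, 4448 and 5135 in ventricles. At E18.5 it read 3993, 3179 and 2867 in atria, against 6132, 6309 and 6201 in ventricles. Over the 15 atrial arrays it lay between 2155 and 3993, and over the 15 ventricular arrays between 3905 and 6309. The highest atrial value was on E18.5 replicate 1, one of the arrays with high Irx4. The mean difference was -0.74 ± 0.05 (limma adjusted p = 3.5e-13), which is 1.67 times lower in atria, and without the 5 arrays it was -0.81. By day, E12.5 gave -0.54, E13.5 gave -0.78, E14.5 gave -0.46, E16.5 gave -1.02 and E18.5 gave -0.90, each with an SE of 0.11 and an adjusted p of at most 0.0095. At E14.5 the adjusted p was 0.074 without atrial replicate 3. In fits of the compared groups alone, the E12.5 and E14.5 calls were lost (adjusted p = 0.062 and 0.16). Without the 5 arrays, E12.5 gave -0.58, E16.5 gave -1.07 and E18.5 gave -1.04, all called.

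Over time Ckb changed little beside Ckm. The early heart region read 4846, 4724 and 5076 at E11.5, against 5533, 5509 and 6043.5 at E10.5. Ventricles held between 3905 and 5135 from E12.5 to E14.5 and between 5025 and 6309 at E16.5 and E18.5. The ventricular difference between E18.5 and E12.5, 0.39 ± 0.11, was called (limma adjusted p = 0.0061). In atria it was 0.03 ± 0.11 (limma adjusted p = 0.86), with overlap of the arrays. The test of the difference between the chambers in this change gave -0.36 ± 0.15 and did not pass (limma adjusted p = 0.19). It passed without atrial replicate 1 of E18.5, at -0.49 (adjusted p = 0.0497).

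Ckmt1, the ubiquitous mitochondrial enzyme, was not measured above the filter. Its probe sets 1417089_a_at and 1432418_a_at read between 19.1 and 156 and between 32.2 and 182 on the 36 arrays, and 1 array in all, for the second, was above 171.8. The first read 156, 137 and 130.4 in E18.5 atria, against 91.5, 83 and 92 in E18.5 ventricles. Those values stand in the lower part of each array, where no level can be set beside that of Ckmt2. With no filter, the second probe set stood for the gene. It gave a rise of 1.04 ± 0.30 from E12.5 to E18.5 in atria (limma adjusted p = 0.018), and no other comparison of this probe set was called. This rise lies among values below the filter level, so its size is uncertain. The first probe set was not examined in that fit, and in E12.5 atria it read 42.4, 61.3 and 69.6, below all its E18.5 atrial values.

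The start regions of the 3 measured creatine kinase genes are shown because these genes moved differently. Each had 1 annotated start in RefSeq, on the mouse build GRCm38.p6, and the windows hold 250 bases before and 50 bases after it, read 5′ to 3′ on the gene's strand. Capitals mark E-boxes, spelled CANNTG and bound by helix-loop-helix factors, and TATAAA, both searched on either strand. Ckm lies on chr7:19410844-19411143 (plus strand), Ckmt2 on chr13:91876836-91877135 (minus strand) and Ckb on chr12:111672289-111672588 (minus strand).
Ckm: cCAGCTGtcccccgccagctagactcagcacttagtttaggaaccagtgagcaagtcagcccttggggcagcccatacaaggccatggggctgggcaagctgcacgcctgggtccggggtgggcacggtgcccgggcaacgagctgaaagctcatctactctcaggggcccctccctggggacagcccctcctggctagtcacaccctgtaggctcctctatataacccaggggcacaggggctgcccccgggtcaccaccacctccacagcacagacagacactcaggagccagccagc
Ckmt2: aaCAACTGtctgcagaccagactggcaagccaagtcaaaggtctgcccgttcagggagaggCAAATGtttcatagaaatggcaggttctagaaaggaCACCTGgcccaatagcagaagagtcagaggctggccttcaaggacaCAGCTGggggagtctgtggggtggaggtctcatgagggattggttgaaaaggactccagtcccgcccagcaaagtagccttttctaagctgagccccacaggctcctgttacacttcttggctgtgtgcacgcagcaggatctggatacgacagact
Ckb: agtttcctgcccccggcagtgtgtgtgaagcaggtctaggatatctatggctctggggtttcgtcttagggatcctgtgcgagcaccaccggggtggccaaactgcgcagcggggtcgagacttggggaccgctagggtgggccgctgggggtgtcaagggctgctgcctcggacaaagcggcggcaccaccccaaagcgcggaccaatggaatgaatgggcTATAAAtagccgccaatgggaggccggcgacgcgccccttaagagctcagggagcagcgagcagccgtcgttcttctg
The Ckm window held 1 E-box and the Ckmt2 window 4, and the Ckb window held none. An E-box was found in 72.3% of the 32851 windows of this length in the table. Ckb had TATAAA, at 28 bases before the start, which 13.6% of windows had. A match to the MEF2 motif, which 0.557% of windows had, overlapped it in Ckb and was in no other window of the 6 genes. The CArG box, found in 1.63% of windows, was in none of their 12 windows. These matches describe letters in the windows and were not tested for binding.

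Ak1, which recovers ATP from ADP and yields the AMP that reports energy stress, differed between chambers and between days by less than a factor of 2 in each case. At E12.5 it read 2892.5, 3526 and 3841 in atria, against 4157, 4588 and 4385 in ventricles. At E18.5 atria read 5406, 5132 and 5071.5, against 7127, 7537 and 6311 in ventricles. The chambers overlapped on E14.5 and on none of the other 4 days. The mean difference was -0.40 ± 0.05 (limma adjusted p = 2.5e-07) and was -0.46 without the 5 arrays with high Irx4. Single days gave -0.36, -0.41, -0.32, -0.48 and -0.42 in order of day, each with an SE of 0.12. All but E14.5 (adjusted p = 0.088) were called. Without the 5 arrays, E12.5 gave -0.39 and was not called (adjusted p = 0.0502), while E16.5 gave -0.48 and E18.5 gave -0.45, both called. The E12.5 call, at an adjusted p of 0.043, was lost in 5 of 36 refits without 1 array and in 7 of 16 other alternatives, with an adjusted p of 0.20 in the compared groups alone. The E13.5 call was lost without ventricular replicate 1 (adjusted p = 0.12) or atrial replicate 3 (0.11), and the E18.5 call without ventricular replicate 2 (0.054) or with quantile normalization (0.067).

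Ak1 rose with day in both chambers. In E18.5 against E12.5 the rise was 0.61 ± 0.12 in atria and 0.67 ± 0.12 in ventricles (limma adjusted p = 0.00031 and 6.6e-05), with no overlap between the days in either chamber. The difference between the chambers in this rise was -0.06 ± 0.16 (limma adjusted p = 0.89). The early heart region read 3784, 3632 and 3833 at E11.5, against 3728, 3393 and 3808 at E10.5, with overlap. In the order of group means each neighbouring pair overlapped but the top one, E18.5 ventricles above E16.5 ventricles. The other Ak1 probe set, 1423988_at, stayed between 41.5 and 167 and was not tested.

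Mb, the oxygen store of muscle, showed the largest chamber difference of the 5 genes. At E12.5 it read 997, 784 and 346 in atria, against 4031, 9643 and 4561 in ventricles. At E13.5 it read 272, 389 and 311 in atria, against 10839.9, 8369 and 10086 in ventricles. The 3 atrial arrays of E13.5, all with Irx4 below 50, lay close together and gave the lowest group mean of the 12. At E14.5 it read 4192, 5791 and 429 in atria, against 13311.5, 7505 and 9255.5 in ventricles. At E16.5 the atria read 601, 3534 and 259, against 10011, 10888 and 12546 in ventricles. At E18.5 the atria read 8823.5, 1390.3 and 1087, against 14241, 14494 and 12200.1 in ventricles. On each day each ventricular array was above each atrial one, and from E14.5 the atrial arrays of one day were spread by 8.12 to 13.7 times.

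The mean difference of Mb was -3.26 ± 0.33 on the log2 scale (limma adjusted p = 2.4e-09). Day by day, E12.5 gave -3.08, E13.5 gave -4.85, E14.5 gave -2.14, E16.5 gave -3.72 and E18.5 gave -2.51, each with an SE of 0.73, and E14.5 alone was not called (adjusted p = 0.074). Of the 5 atrial arrays with Irx4 above 300, the lowest Mb was 784, the median 4192 and the highest 8824, against 259, 409 and 1390.3 on the other 10 atrial arrays. Without the 5 arrays the mean difference was -4.14, and by day E12.5 gave -3.22, E16.5 gave -4.75 and E18.5 gave -3.45. The arrays left out at E16.5 and E18.5 had the highest atrial Mb of their day, so the larger differences there follow from the choice of arrays. At E14.5 the difference was -2.83 without atrial replicate 2 (adjusted p = 0.024) and -0.98 without atrial replicate 3 (adjusted p = 0.50). At E16.5 it was -2.91 without atrial replicate 3 (adjusted p = 0.0098). High Irx4 and high Mb thus fell on the same atrial arrays, with E12.5 replicate 2 inside the range of the others. The E18.5 call was lost without atrial replicate 2 (-2.12, adjusted p = 0.081) or replicate 3 (-1.95, adjusted p = 0.11), and replicate 3 is the E18.5 array with high lung genes.

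**Figure D2:**
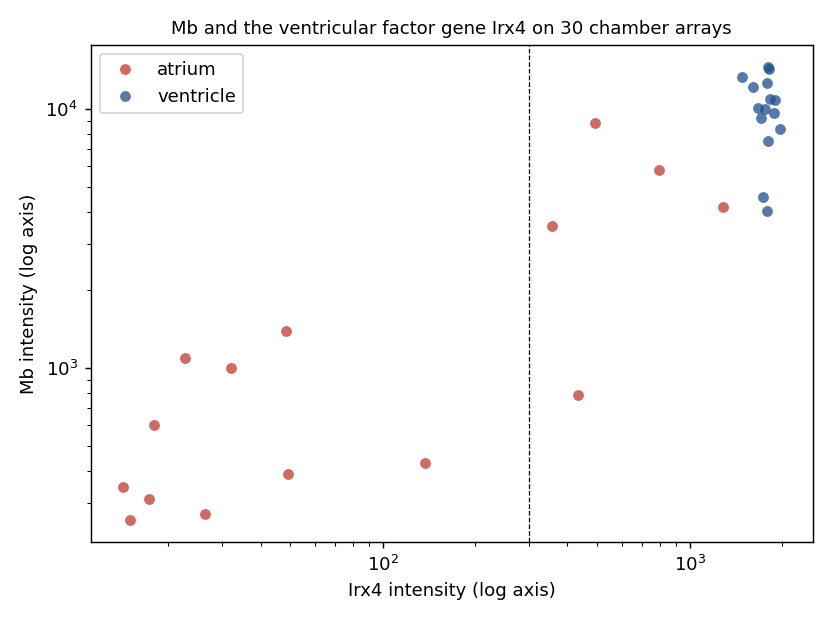
Mb intensity against Irx4 intensity on the 15 atrial (red) and 15 ventricular (blue) arrays, both on log axes, with a dashed line at an Irx4 intensity of 300. The 10 atrial arrays left of the line have Mb between 259 and 1390.3, and the 5 right of it between 784 and 8824.

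Over time Mb was already present in the early heart region, at 1905, 2137 and 1998 on E11.5 arrays, against 781, 728 and 544 on E10.5 arrays. Between E18.5 and E12.5 it differed by 1.85 ± 0.73 in atria (limma adjusted p = 0.064) and by 1.27 ± 0.73 in ventricles (limma adjusted p = 0.20), although the days did not overlap in either chamber. The SE pools the spread of all 12 groups, in which the Mb arrays of E14.5 atria had an SD of 2.02 and those of E18.5 ventricles 0.14. In a fit of the E18.5 and E12.5 ventricles alone, the difference was called (limma adjusted p = 0.0094), and in the same fit of atria it was not (0.13). Without the 5 arrays with high Irx4, all of them atrial, the ventricular difference stayed at 1.27 and only its SE and adjusted p could change. In atria it was 1.04 without the 5 arrays (adjusted p = 0.062) and 0.91 without replicate 1 of E18.5 (adjusted p = 0.43). It passed without replicate 3 of E14.5, replicates 2 or 3 of E16.5 or replicate 3 of E18.5, with adjusted p between 0.024 and 0.046. Leaving out an E14.5 or E16.5 array left the difference at 1.85 and changed only its SE and adjusted p. A second Mb probe set, 1422420_at, stayed between 24.4 and 197 and was not tested. In the order of the 12 group means all 11 pairs of neighbours overlapped, with the 5 ventricular groups at the top.

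The calls by day followed these values. At E12.5, 3 of the 5 measured genes were called lower in atria (Ckb, Ak1 and Mb), where 9.67% of all probe sets were called. At E13.5 the same 3 genes were called, beside 12.1%. At E14.5 Ckb alone was called, beside 6.18%, and at E16.5 Ckb, Ak1 and Mb, beside 16.9%. At E18.5, 4 genes were called lower, Ckmt2 with the other 3, beside 19.5%. None of the 5 genes was called higher in atria on any day. For E18.5 against E12.5, 3 genes were called higher in atria, where 24.3% of probe sets were called, and 4 in ventricles, where 28.7% were. The difference between the chambers in this change was called for 0 of 5 genes in limma, and for 3.78% of probe sets, and 2 genes, Ckb and Ckmt2, had an unadjusted p under 0.05.

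**Figure D3:**
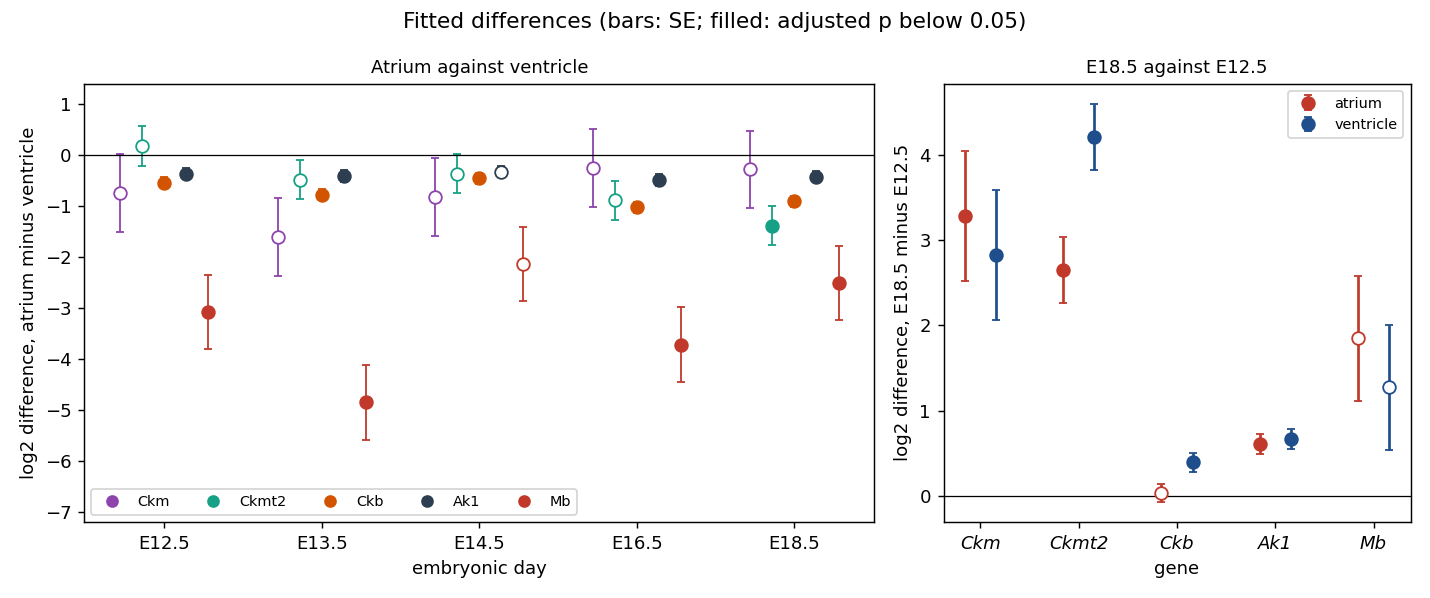
Left, fitted log2 difference of atrium minus ventricle at each day for 5 genes, and right, of E18.5 minus E12.5 in atria (red) and ventricles (blue). Bars are the SE of the fit (n = 3 arrays a group), and filled points passed an adjusted p of 0.05. Mb lies lowest on each day, and Ckmt2 moves from 0.18 at E12.5 to -1.39 at E18.5.

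Shorter intervals within a chamber gave fewer calls, and Ckmt2 from E13.5 to E16.5 in ventricles was the only call among the main probe sets of the 5 genes. In atria, 0 of 5 genes were called in limma for E13.5 against E12.5, where 0% of probe sets were called and 3236 had an unadjusted p under 0.05, Ckb among them. For E16.5 against E13.5 the count was again 0 of 5 and 0%, with 3215 probe sets at an unadjusted p under 0.05, among them Ckm and Ckmt2. For E18.5 against E16.5, 0 of 5 were called beside 0.316%, with Ckb, Ak1 and Mb at an unadjusted p under 0.05. In ventricles, 0 of 5 were called for E13.5 against E12.5, where 0% of probe sets were called and 3550 had an unadjusted p under 0.05, Ckm and Ckmt2 among them. For E18.5 against E16.5, 0 of 5 were called beside 0.216%, with Ckmt2 and Ak1 at an unadjusted p under 0.05. The Ckm values of E13.5 and E12.5 in ventricles differed by 1.76 ± 0.76 (limma adjusted p = 0.33), and by 2.68 without ventricular replicate 2 of E12.5 (adjusted p = 0.049).

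In the early heart region, E11.5 against E10.5, 0 of 5 genes were called in limma, beside 1.16% of probe sets, and Ckb and Mb had an unadjusted p under 0.05. The arrays of these days did not overlap for Ckm, Ckmt2, Ckb and Mb. How many of all probe sets separate in this way was not counted, so this is given as a description. In the fit without the 5 atrial arrays with high Irx4, Mb was called at the same difference (adjusted p = 0.0100). With the spread of the 6 region arrays alone, 3 genes were called, beside 2218 of 27256 probe sets. The sizes of the differences stayed as they were. Ckm was higher at E11.5 by 1.08 ± 0.18 (limma adjusted p = 0.0085), Mb was higher by 1.55 ± 0.12 (limma adjusted p = 0.00093) and Ckb was lower, at -0.22 ± 0.05 (limma adjusted p = 0.030). In the fit over all 12 groups the SE of Ckm was 0.76 and that of Mb 0.73. For the mean of both E12.5 chambers against the E11.5 region, 0 of 5 were called in limma beside 0.936%, and Ckm (2.41 ± 0.66, adjusted p = 0.076) and Ckb (-0.32 ± 0.09, adjusted p = 0.10) had an unadjusted p under 0.05. Ckm passed without atrial replicate 2 of E12.5, at 2.88 (adjusted p = 0.017), and without all 5 atrial arrays with high Irx4 both Ckm (adjusted p = 0.0030) and Ckb (0.049) passed. These groups also differ in how the tissue was taken, and the part of that in the difference cannot be told apart.

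The shift between cytosolic subunits was followed as the log2 ratio of Ckm over Ckb on the same array, whose changes, not levels, can be compared. At E18.5 the ratio was 2.84 higher than at E12.5 over both chambers, in an exact permutation test with arrays exchanged within a chamber (two-sided p = 0.005, the smallest that its 400 arrangements can give, and 0.02 after adjustment over 4 ratio tests). Between atria and ventricles it differed by 0.0002 over the mean of the 5 days (permutation p = 1.0), as the mean chamber difference was -0.74 for each gene. That mean held daily differences of opposite sign. Mean ratios were lower in atria than in ventricles at E12.5 (-1.43 and -1.23), E13.5 (-0.19 and 0.64) and E14.5 (0.54 and 0.91). They were higher in atria at E16.5 (2.02 and 1.25) and E18.5 (1.81 and 1.20), where the arrays of the chambers did not overlap. Single days of the ratio were not tested. For Ckmt2 over Ckm, E18.5 and E12.5 differed by 0.38 (exact permutation p = 0.54, adjusted 0.85), and atria and ventricles by 0.15 (permutation p = 0.64, adjusted 0.85). Both means again held differences of opposite sign. From E12.5 to E18.5 the mean ratio went from -2.285 to -0.895 in ventricles and from -1.363 to -1.998 in atria. It was higher in atria than in ventricles up to E14.5 and lower from E16.5. At E18.5 the arrays of the chambers did not overlap. Single chambers and single days of this ratio were not tested. The Ckm arrays of E12.5 were spread by more than 7 times in each chamber, which limits both ratios.

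Within the 10 chamber groups, arrays of one group that were high in Ckm tended to be high in Ckmt2. Over the 30 chamber arrays, deviations from the group means gave a Pearson r of 0.75 and a Spearman rho of 0.79 (permutation within groups, p = 1e-05, the smallest that 100000 resamples can give, and 1e-04 adjusted over 10 pairs). It was 0.77 in atria and 0.71 in ventricles, and 0.73 without the 2 arrays farthest from the median of Ckm. Examples are E13.5 atrial replicate 2, where Ckm read 7219 and Ckmt2 996, and E12.5 atrial replicate 2, where they read 315.5 and 272. For Ckm and Mb, r was 0.53 (permutation p = 0.012, adjusted 0.051) and rho 0.63 (permutation p = 0.0047, adjusted 0.024), with r at 0.49 in atria and 0.96 in ventricles. Ckmt2 and Mb gave r of 0.55 (permutation p = 0.015, adjusted 0.051) and rho of 0.54 (permutation p = 0.012, adjusted 0.039). Ckb and Ckm gave r of -0.24 (permutation p = 0.34, adjusted 0.40), and none of the other pairs had an adjusted p under 0.05. Each array gives all 5 genes, so a common shift of one array enters each pair.

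**Figure D4:**
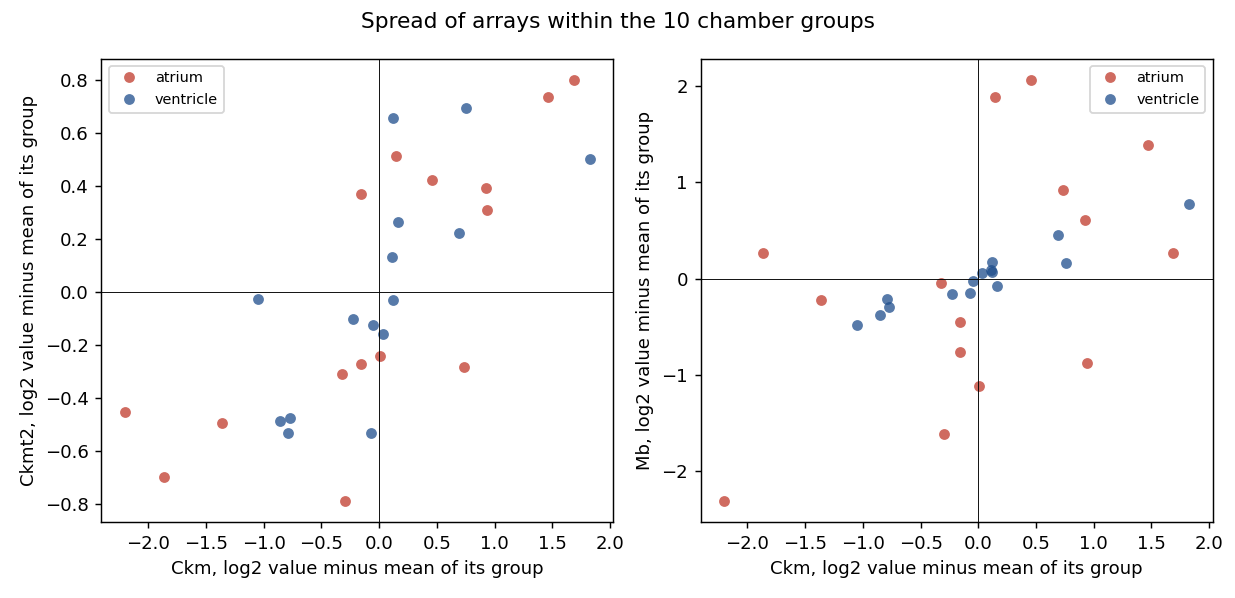
Deviation of each chamber array from its group mean in log2(intensity + 17), Ckm on the horizontal axes against Ckmt2 (left) and Mb (right), with atria in red and ventricles in blue. Over these 30 arrays r was 0.75 for Ckmt2 and 0.53 for Mb, and the ventricular points of Mb lie near one line (r = 0.96).

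On one E12.5 ventricular array, replicate 2, both genes were high together, with Ckm at 7152 and Mb at 9643, against Ckm of 956.5 and 1163 and Mb of 4031 and 4561 on the other E12.5 ventricular arrays. The summed genes of red blood cells (3 of 6 listed measured) were 2207 on it, against 8976 and 11965 on the other E12.5 ventricular arrays. Among the E14.5 ventricles, replicate 1 had the highest Ckm (12668) and Mb (13311.5), the lowest red cell sum (1526, against 5363 and 2364) and the highest sum of heart muscle genes (138073, against 85417 and 92554). The part of the cell mixture in these values was not tested.

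Genes around the phosphate network were counted in 7 lists that hold 42 genes, of which 34 were measured. In atria against ventricles, 20 of the 34 were called lower, 3 higher and 11 were not called, beside 42.4% of all probe sets called. For E18.5 against E12.5, 8 were higher and 5 lower in atria, beside 24.3% of all probe sets called, and 9 were higher and 8 lower in ventricles, beside 28.7%. Without the 5 atrial arrays with high Irx4, all 23 chamber calls kept their call and sign and Slc25a3 and Slc25a4 were added, while in atria Ak3, Prkab1 and Esrra lost their call over time. Of the 3 genes for creatine synthesis and uptake, Slc6a8, the creatine transporter, was lower in atria than in ventricles, at -0.68 ± 0.07 (limma adjusted p = 8.9e-09) and rose by 0.90 in atria and by 0.71 in ventricles from E12.5 to E18.5. Gamt, which makes the last step of creatine synthesis, fell by 0.70 in atria and by 0.52 in ventricles. Gatm, which makes the first step, fell by 1.71 ± 0.28 in ventricles (limma adjusted p = 3.2e-05) with a difference of -0.57 ± 0.28 in atria (limma adjusted p = 0.14). The transporter and the synthesis genes thus went opposite ways with day in ventricles, each by a called change.

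Of 7 other adenylate kinases 3 were measured. In atria, Ak4, a mitochondrial matrix kinase, was lower than in ventricles, at -0.50 ± 0.06 (limma adjusted p = 4.7e-08), as was Ak3, the matrix GTP:AMP kinase, at -0.19 ± 0.05 (limma adjusted p = 0.0035). Ak3 rose by 0.49 in atria and 0.66 in ventricles with day, and Ak5 was called in none of these 3 comparisons. Of 7 measured nucleoside diphosphate kinases and AMP deaminases, 4 were lower and 2 higher in atria than in ventricles, beside 42.4% of all probe sets called. Ampd3, an AMP deaminase, was lower in atria, at -0.87 ± 0.10 (limma adjusted p = 3.3e-08) and rose by 1.43 with day in ventricles, while Ampd2 fell by 1.02 in both chambers. Nme4, the mitochondrial diphosphate kinase, fell by 0.85 in atria and by 1.04 in ventricles, and Nme1 fell by 0.62 in atria and by 0.59 in ventricles.

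The 6 adenine nucleotide and phosphate carriers and porins pass ATP, ADP and phosphate across the mitochondrial membranes. In atria 3 of the 6 were called lower, namely Slc25a5 (-0.23), Vdac2 (-0.16) and Vdac3 (-0.13), beside 42.4% of all probe sets called. With day 0 of 6 were called in either chamber in limma, beside 24.3% of all probe sets in atria and 28.7% in ventricles. Of these genes 0 of 6 had an unadjusted p under 0.05. Of 6 measured subunits of AMPK, the AMP-activated kinase, 3 were lower and 1 higher in atria, beside 42.4% of all probe sets called. The catalytic subunit gene Prkaa2 was lower in atria, at -0.42 ± 0.05 (limma adjusted p = 2.1e-07), and rose with day by 0.45 in atria and 0.49 in ventricles. Prkag2, a regulatory subunit gene, was higher in atria by 0.18 and rose by 0.67 in atria and 0.56 in ventricles. Of the scaffold subunit genes, Prkab1 fell by 0.67 in atria (limma adjusted p = 0.0040) and Prkab2 fell by 0.44 in ventricles (limma adjusted p = 0.00049). Cygb, the one measured globin outside red cells beside Mb, rose by 1.67 ± 0.28 in atria and 1.97 ± 0.28 in ventricles (limma adjusted p = 9.6e-05 and 6.1e-06), and between the chambers it differed by -0.25 ± 0.13 (limma adjusted p = 0.11).

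Of 8 muscle and mitochondrial transcription regulators, 7 were called lower in atria than in ventricles, beside 42.4% of all probe sets called, and 1, Mef2a, was not called. Esrrg and Esrra encode oestrogen-related receptors that act on genes of oxidative metabolism, and Ppargc1a encodes their coactivator. Esrrg was lower in atria, at -0.63 ± 0.06 (limma adjusted p = 3.6e-10), Ppargc1a at -0.41 ± 0.06 (limma adjusted p = 1.4e-06) and Esrra at -0.31 ± 0.12 (limma adjusted p = 0.029). With day, Esrra rose by 0.88 in atria and 1.18 in ventricles, Ppargc1a by 0.54 in atria and 0.37 in ventricles and Mef2a by 0.51 in atria and 0.66 in ventricles. Esrrg fell by 0.39 in ventricles (limma adjusted p = 0.023). The median of this list was -0.21 for atria against ventricles, beside -0.01 over all probe sets tested.

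Genes with the most similar pattern were taken as the 5 with the highest Pearson correlation to each member over the 12 group means, out of 12983 genes. These groups share days, chambers and arrays, so high values are common and are given as a description. For Ckm the closest was Gas6 (r = 0.98), followed by Hspb6, Sox7, Klhdc1 and Klhl24. For Ckmt2 it was Mgll (0.99), a lipase of monoglycerides, followed by Mpc1, a subunit of the mitochondrial pyruvate carrier, Sgk1, Mcur1 and Acss2. Ckb was closest to Mrpl47 (0.97), a mitochondrial ribosomal protein gene, then Ptcd3, Parl, Lrrc47 and Rhot2. Ak1 was closest to Pde4dip (0.99), then Ogdh, a subunit of the oxoglutarate dehydrogenase, Fhod3, Endog and Parvb. Mb was closest to Retreg1 (0.98), then Mapre2, Apold1, Rapsn and Grk5. No gene was in more than 1 of these 5 lists.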

How the data were processed

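RNA of atrial chambers, both ventricles and the early heart region was measured on 36 arrays. The authors deposited 1 intensity, on a linear scale, for each probe set of an array. Their software and scaling method are not given in the sources used here. Each array had a 2% trimmed mean of 500.0, so each array had been scaled, and this was kept. Array medians lay between 143.8 and 210.7 and maxima between 12532 and 26432. The highest Ckm and Mb intensities, 15468 and 14494, lay within the range of these maxima, which limits what differences among such values can show. Precision is also limited by the number of arrays. Within groups, arrays correlated at 0.941 to 0.984, and no pair was identical.

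Of 45101 probe sets, 64 controls were left out. GEO's platform annotation, which can be old, gave 34945 of the other 45037 1 symbol, 932 several and 9160 none. A pseudocount of 17 (10% of the median over all values) went in before log2. Probe sets above that median, 171.8, on at least 3 arrays were tested. R 4.3.3 with limma 3.58.1 (lmFit, eBayes with trend) fitted 12 group means with 24 residual degrees of freedom. Tests were two-sided and adjusted by Benjamini-Hochberg over 27256 probe sets in each of 17 comparisons. The fit was tested on simulated data. The probe set of highest mean stood for a gene. Ratios and correlations used permutation tests (Python 3.11.15, SciPy 1.17.1).

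The members, the gene lists and the 4 sets of left-out arrays were chosen with earlier results of these data known. Named genes were the members, up to 4 called genes with the largest change of each list, and the 5 genes most like each member. Replicate numbers are shared between chambers, but over 15 pairs of same-numbered arrays the deviations correlated at -0.34 to 0.16, 1 of them above 0.1, so the numbers were not treated as pairs. Alternatives were other pseudocounts and filters, quantile normalization, median centring, array weights, no intensity trend, the compared groups alone, a replicate block, averaged probe sets of a gene, and each array left out in turn.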

Additional observations from a re-analysis of the deposited data

How the results depend on the processing

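Members called over the mean of 5 days kept within 3 to 5, at single days within 11 to 16, and in E18.5 against E12.5 within 4 to 5 in ventricles and 3 to 4 in atria, over all alternatives and single arrays left out. Without the 5 atrial arrays with high Irx4, E14.5 atria are 1 array, assumed to vary like the other groups. With a replicate block, which the numbers did not bear out as a pairing, Ckmt2 lost its mean chamber call (adjusted p = 0.053) and its E18.5 call (0.086), Ckb its E14.5 call (0.085) and Ak1 its E12.5 call (0.094), and Mb gained its call over time in atria. The difference between chambers in the change with day was called for 0 genes, for 1 with array weights (Ckb) and for 1 without the 5 atrial arrays with high Irx4 (Ckmt2), and for 0 to 1 with single arrays left out. Over the shorter intervals 1 gene was called, 7 gene and interval pairs with array weights, 2 without the 2 atrial arrays with high skeletal muscle genes, and 0 to 3 with single arrays left out. For E11.5 against E10.5 the count was 0, 3 in the compared groups alone and 1 (Mb) without the 5 arrays. For E12.5 chambers against the E11.5 region it was 0, 1 with array weights (Ckb), 2 without the 5 arrays (Ckm and Ckb), 1 (Ckm) without the 2 skeletal muscle arrays, 1 (Ckm) without the 2 arrays with high liver genes, and 0 to 1 with single arrays left out.

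Signs turned for values that were not called. The Ckm over Ckb ratio between chambers was -0.0032 with a pseudocount of 1, -0.25 without the 5 arrays and -0.19 to 0.21 with single arrays left out. The Ckmt2 over Ckm ratio between chambers was -0.0078 with a gene's probe sets averaged, -0.019 without the 2 skeletal muscle arrays and -0.023 to 0.25 with single arrays left out, and with averaged probe sets its difference over time was 1.20 (exact permutation p = 0.02). Ckm between chambers at E12.5 was 0.19 without the 5 arrays and also without the 2 liver arrays, and -1.27 to 0.19 with single arrays left out. At E14.5 it was 0.28 without the 2 skeletal muscle arrays and -1.56 to 0.28 with single arrays left out. Ckmt2 between chambers at E12.5 was -0.41 with array weights and -0.058 to 0.53 with single arrays left out. Ckb over time in atria was -0.069 with array weights, -0.068 without the 5 arrays and -0.10 to 0.14 with single arrays left out. Fits of the compared groups alone have fewer arrays and use the spread of those arrays only. Why a value changed between settings was not tested. Array maxima limit what the highest Ckm and Mb intensities can show.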
